A study of Mus musculus with 8 samples.

Results

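The genes described here are 34 mouse genes whose use is largely restricted to blood cells: surface proteins and receptors carried by most white blood cells, the kinases, phosphatases and adaptors that relay signals inside them, the actin and Rac machinery that moves them, and a few enzymes and receptors of phagocytes. They were picked by symbol with an earlier comparison of the same libraries known, so their difference between the groups is given as a description and carries no test. All 34 were found among the 37991 genes of the table, and all 34 passed the filter on low counts. The libraries come from adult cardiomyocytes isolated from hearts of mice with the genetic background alpha-MHC MERCREMER MADM. The hearts of both groups had received adenovirus carrying 4 cell cycle genes, called 4F in the labels, and the cells were taken 2 weeks later. Single colored cells are those that, per the labels, performed a cell cycle. Double colored cells had the same treatment and, per the labels, did not. There were 4 libraries of each, numbered 1 to 4. The alpha-MHC promoter, which drives the inducible Cre that makes the MADM (mosaic analysis with double markers) colors, is a cardiomyocyte promoter, so the colors are meant to arise in cardiomyocytes. No group without 4F is part of the comparison. The labels do not say whether the libraries of a group come from separate mice, so a p-value here reflects library-to-library spread alone, and that spread may be technical.

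White blood cells of all lineages share a core set of proteins that other tissues use little. CD45 (Ptprc), a receptor phosphatase, sets the threshold of antigen receptor signaling through Src family kinases. Downstream, Btk, the adaptor Lcp2 (SLP-76) and the exchange factor Vav1 carry the signal to Rac GTPases, and Rac2 acts both on the WAVE complex, which builds branched actin, and on the phagocyte NADPH oxidase, which makes superoxide. The phosphatases Ptpn6 (SHP-1) and Inpp5d (SHIP-1) damp the same pathway. In the heart these genes are known from resident macrophages and from lymphocytes and other leukocytes that enter after injury. Cardiomyocytes use other members of the same families, such as Rac1 in place of Rac2.

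The libraries held 23820700 to 30082278 reads on genes. Between 84.2% and 88.3% of these reads in double colored and between 77.5% and 85.9% in single colored libraries fell on mitochondrially encoded genes, which left 3503353 to 3850391 and 3750616 to 6112595 nuclear reads. Of the lists examined, cardiomyocyte genes, the labelled cell type, had the highest levels. Tnnt2 (troponin T) stood at 1823 CPM (a gene's reads over the scaled depth of its library) per kilobase of exon in double and 1372 in single colored libraries, Actc1 (cardiac actin) at 1796 and 1432, and Myh6 (alpha myosin heavy chain) at 440.3 and 322. The 34 leukocyte genes together took 3249 to 4922 reads in a double colored and 8191 to 22489 reads in a single colored library. That is 0.0844% to 0.139% and 0.203% to 0.443% of the nuclear reads.

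All 34 genes had a higher mean in single than in double colored libraries. The log2 fold change of single over double ran from 0.31 (Cd68) to 2.29 (Ms4a6d) with a median of 1.36, while the median over all 12466 tested genes was -0.01. Of the 34, 22 passed an adjusted p of 0.05 in edgeR's quasi-likelihood test as higher and 0 as lower. Over all tested genes 2.32% passed as higher and 0.16% as lower, 2.48% in either direction. In 26 of the 34 every single colored library lay above every double colored one, against 5.37% of all tested genes, and in 0 of them every single colored library lay below, against 3.76%. Nothing is read from these shares, or from the counts by role below, because the genes were chosen with this contrast known. When the replicate numbers entered the fit as a block, 29 of the 34 passed as higher, beside 4.97% of all tested genes, and 0 as lower, beside 2.57%. The 7 genes that passed with the block and not in the edgeR fit without it were Selplg, Ptpn6, Inpp5d, Plek, Cyth4, Lyz2 and Cd14. Without a block, Cd14, Cyth4, Inpp5d and Lyz2 also passed with DESeq2, and all 7 with scaling by library totals alone. In the edgeR fit without the block, 12 of the 34 passed, with a median of 1.11, when single colored replicate 1 was left out. The count was also 12 when double colored replicate 4 was left out. Summed over the 34 genes, the level was 183 ± 31.8 CPM in double and 400.1 ± 128 CPM in single colored libraries (SD, n = 4), a ratio of 2.19. Leaving out single colored replicate 1 gave a ratio of 1.84. In these bulk libraries, more cells of a type and more RNA per cell cannot be told apart.

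**Figure D1:**
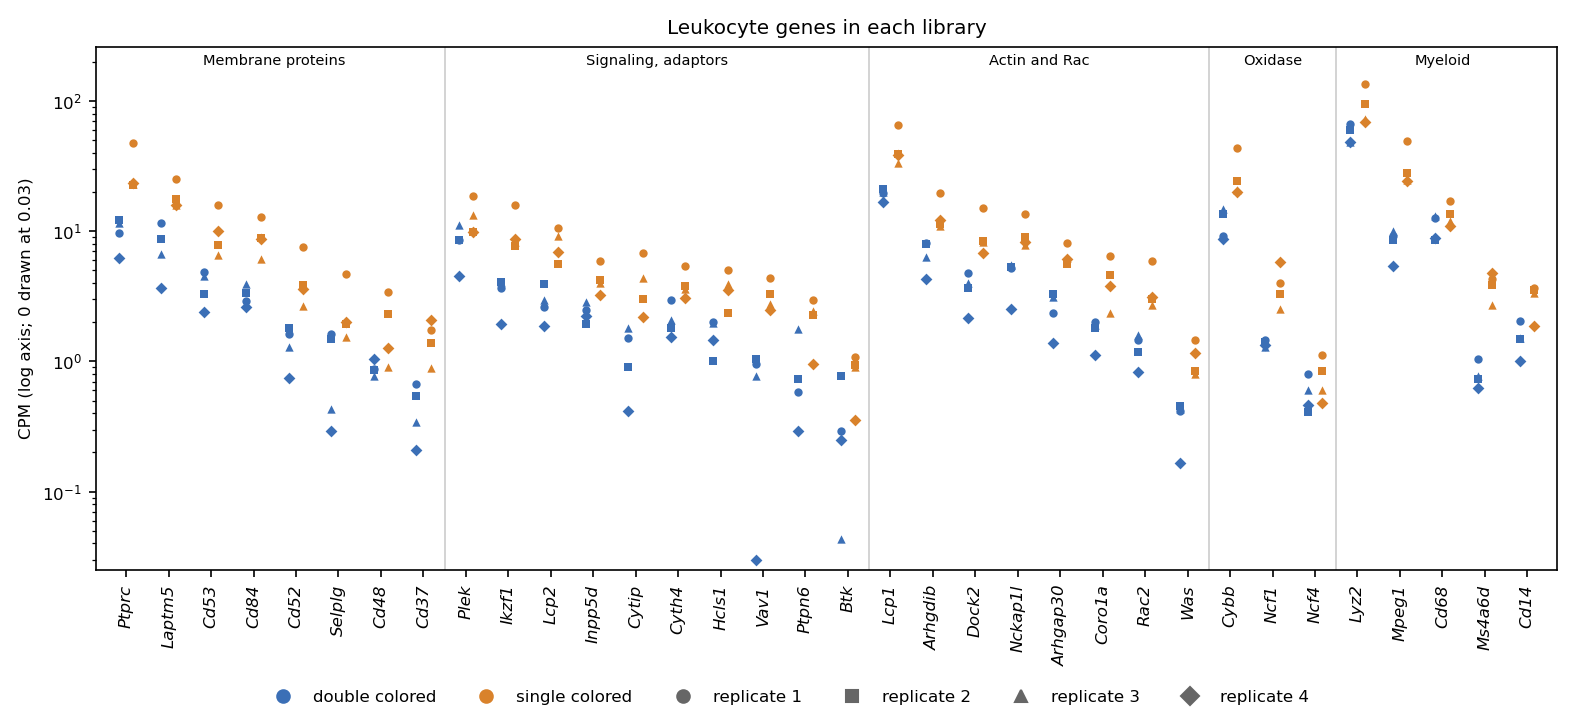
Level of each of the 34 leukocyte genes in each library, in CPM on a log axis, with double colored libraries in blue and single colored libraries in orange and the genes grouped by role. In 26 genes all 4 single colored points lie above all 4 double colored points, and the groups overlap in 8.

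Among the 8 surface and membrane proteins, 6 passed the threshold as higher, beside 2.32% of all tested genes. The median log2 fold change was 1.47. The count fell to 3 when double colored replicate 4 or single colored replicate 1 was left out. Ptprc (ENSMUSG00000026395, mm9 chromosome 1, 139959438 to 140071882), the gene for CD45, the defining surface protein of white blood cells, measured 9.63, 12.2, 11.5 and 6.23 CPM in double colored replicates 1 to 4. In single colored replicates 1 to 4 it measured 47.7, 22.5, 23.0 and 23.6 CPM. The groups did not overlap, single colored replicate 1 stood far above the other libraries, and the log2 fold change was 1.56 ± 0.26 (SE). Cd84, a SLAM family receptor through which leukocytes contact each other, measured 2.89, 3.36, 3.93 and 2.63 CPM in double and 12.8, 8.90, 6.17 and 8.73 CPM in single colored libraries. Its groups did not overlap and its log2 fold change was 1.51 ± 0.23. Laptm5 (mm9 chromosome 4, 130469040 to 130492056) codes for a lysosomal membrane protein of blood cells that lowers antigen receptor levels. It measured 11.6, 8.77, 6.70 and 3.64 CPM in double and 25.1, 17.7, 16.003 and 15.99 CPM in single colored libraries, again with no overlap, and its log2 fold change was 1.29 ± 0.27. Its call was lost when double colored replicate 3 or single colored replicate 1 was left out.

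The tetraspanins Cd53 and Cd37, which organise receptors in the leukocyte membrane, had log2 fold changes of 1.43 ± 0.28 and 1.76 ± 0.45 without overlap between groups. Cd37 was the scarcer, at 0.209 to 0.670 CPM in double and 0.885 to 2.06 CPM in single colored libraries, and it kept its call in 1 of the 8 omissions of a library. Cd52, a small lipid-anchored surface glycopeptide abundant on lymphocytes, measured 0.752 to 1.82 CPM against 2.65 to 7.57 CPM (1.69 ± 0.35). The adhesion ligand Selplg, which binds P-selectin on vessel walls, and the SLAM family ligand Cd48 did not pass in edgeR without the replicate block. Selplg passed with it. Selplg measured 1.63, 1.4997, 0.432 and 0.293 CPM in double and 4.66, 1.95, 1.54 and 2.02 CPM in single colored libraries, so that the highest double colored library lay above the lowest single colored one. Cd48 measured 0.879, 0.863, 0.778 and 1.04 CPM in double and 3.41, 2.30, 0.911 and 1.27 CPM in single colored libraries (1.146 ± 0.40), with single colored replicate 3 inside the double colored range.

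Of the 10 signaling and regulatory genes, 9 passed as higher with the replicate block, beside 4.97% of all tested genes. Without it 5 passed, beside 2.32%, with a median log2 fold change of 1.32. Leaving out 1 library gave 2 to 4 calls, with 2 for double colored replicate 2 and for single colored replicates 1 and 3, and 3 for double colored replicates 1 and 4 and single colored replicate 4. Lcp2, the adaptor SLP-76 on which T cell receptor signaling assembles, measured 2.60, 3.95, 2.98 and 1.88 CPM in double and 10.7, 5.62, 9.19 and 6.91 CPM in single colored libraries. No double colored library reached the single colored range, and the log2 fold change was 1.51 ± 0.26. Its partner Vav1 (mm9 chromosome 17, 57418523 to 57468659), the exchange factor that activates Rac, measured 0.963, 1.05, 0.778 and 0 CPM in double and 4.38, 3.32, 2.78 and 2.5003 CPM in single colored libraries. Vav1 rested on 64 reads in the 4 double and 432 reads in the 4 single colored libraries, and its log2 fold change of 2.22 ± 0.55 kept its call in 1 of 8 omissions. DESeq2 and limma-voom did not call it.

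Ikzf1 (Ikaros), a zinc finger transcription factor needed for lymphoid development, measured 3.64, 4.09, 4.06 and 1.92 CPM in double and 15.98, 7.68, 8.22 and 8.73 CPM in single colored libraries. The groups were separate and the log2 fold change was 1.57 ± 0.28. Cytip, a cytohesin-binding protein that regulates leukocyte adhesion, had a log2 fold change of 1.82 ± 0.41, and Hcls1, the cortactin relative of blood cells that acts below antigen receptors, one of 1.20 ± 0.30. Hcls1 kept its call in 1 and Cytip in 4 of the 8 omissions.

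In edgeR, both inhibitory phosphatases missed the threshold without the replicate block and passed with it, and Inpp5d also passed with DESeq2. Inpp5d, the lipid phosphatase SHIP-1, measured 2.47, 1.95, 2.85 and 2.21 CPM in double and 5.87, 4.22, 4.03 and 3.25 CPM in single colored libraries, with separate groups and a log2 fold change of 0.87 ± 0.24. Ptpn6, the tyrosine phosphatase SHP-1, measured 0.586, 0.727, 1.77 and 0.293 CPM against 2.99, 2.27, 2.42 and 0.952 CPM (1.36 ± 0.47), and its groups overlapped through double colored replicate 3 and single colored replicate 4. Btk, the kinase of B cell and myeloid receptors, had the lowest level of the 34 genes per kilobase and rested on 31 reads in all double and 112 in all single colored libraries. Its groups overlapped (1.28 ± 0.62). Plek (pleckstrin), a protein kinase C substrate of platelets and leukocytes, measured 4.51 to 11.2 CPM against 9.81 to 18.5 CPM (0.65 ± 0.26). Cyth4, an ARF exchange factor, had separate groups and a log2 fold change of 0.92 ± 0.27. Plek and Cyth4 passed with the block and not in the edgeR fit without it, and Cyth4 also passed with DESeq2.

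Of the 8 actin and Rac genes 7 passed as higher, beside 2.32% of all tested genes. In all 8 the single colored libraries lay above the double colored ones, beside 5.37% of all tested genes. When double colored replicate 4 or single colored replicate 1 was left out, 3 of the 8 passed (Lcp1, Dock2 and Arhgap30). The count was 4 without double colored replicate 2 or 3. Their median log2 fold change was 1.35. Lcp1 (L-plastin; mm9 chromosome 14, 75530908 to 75630649), which bundles actin filaments in white blood cells, measured 19.5, 21.0, 20.2 and 16.7 CPM in double and 65.3, 39.4, 33.3 and 38.2 CPM in single colored libraries. The double colored libraries lay close together, all single colored ones were above them, and the log2 fold change was 1.19 ± 0.19. Rac2 (mm9 chromosome 15, 78389599 to 78403213), the Rac GTPase of blood cells, measured 1.47, 1.18, 1.599 and 0.836 CPM in double and 5.95, 3.00, 2.71 and 3.14 CPM in single colored libraries. The groups did not overlap, single colored replicate 1 stood apart from the other 3 single colored libraries, and the log2 fold change was 1.54 ± 0.32.

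Dock2, which activates Rac for lymphocyte migration, measured 4.77, 3.64, 3.98 and 2.17 CPM in double and 15.2, 8.48, 8.27 and 6.83 CPM in single colored libraries (1.42 ± 0.27). Arhgap30, a GTPase activating protein of the cytoskeleton, measured 1.38 to 3.27 CPM against 5.62 to 8.10 CPM (1.37 ± 0.26). Both had separate groups and, with Lcp1, kept their calls in all 8 omissions. Arhgdib and Rac2 kept theirs in 5, and Coro1a and Nckap1l in 1. Arhgdib, the leukocyte inhibitor that keeps Rac and related GTPases in the cytosol, had a log2 fold change of 1.03 ± 0.23, and Nckap1l (HEM1), the leukocyte subunit of the WAVE complex, one of 1.06 ± 0.25. Coro1a (coronin 1A), an actin regulator needed for T cell survival, stood at 1.33 ± 0.31. Was, the Wiskott-Aldrich syndrome protein that activates Arp2/3 branched actin, was the one gene of this role that did not pass (1.53 ± 0.47), at 0.419, 0.454, 0.432 and 0.167 CPM in double and 1.47, 0.838, 0.807 and 1.151 CPM in single colored libraries.

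Of the 3 phagocyte oxidase genes, 2 passed as higher, beside 2.32% of all tested genes. The differences between the 3 genes were not tested. Cybb (gp91phox; mm9 chromosome X, 9012378 to 9064897), the catalytic subunit in the membrane, measured 9.17, 13.5, 14.9 and 8.65 CPM in double and 43.4, 24.4, 20.7 and 20.0 CPM in single colored libraries. The groups were separate, the log2 fold change was 1.23 ± 0.25, and the call was lost without double colored replicate 4. Ncf1 (p47phox), the cytosolic organiser, lay in a narrow range within the double colored group at 1.47, 1.41, 1.30 and 1.34 CPM. It measured 4.04, 3.28, 2.52 and 5.83 CPM in single colored libraries, and single colored replicate 4 was the highest. The groups were separate and the fitted fold was 2.83, with an SE of 0.29 on the log2 scale. Ncf4 (p40phox), its cytosolic partner, measured 0.796, 0.409, 0.605 and 0.460 CPM against 1.13, 0.838, 0.598 and 0.476 CPM. Its groups overlapped and it did not pass (0.42 ± 0.47). Outside the 34, Cyba (p22phox), the partner of Cybb in the membrane, stood at 1.17 ± 0.35 on the log2 scale (adjusted p 0.106, edgeR). It did not pass, though the single colored libraries lay above the double colored ones.

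Of the 5 phagocyte genes, 2 passed as higher in the fit without the block, beside 2.32% of all tested genes. With the block 4 passed, beside 4.97%. These 5 held both the largest and the smallest log2 fold change of the 34 in the fit without the block. With the block Vav1 was the largest (2.39, against 2.28 for Ms4a6d). Ms4a6d (mm9 chromosome 19, 11661094 to 11679339), a four-pass membrane protein of myeloid cells, measured 1.05, 0.727, 0.778 and 0.627 CPM in double and 4.32, 3.84, 2.71 and 4.76 CPM in single colored libraries. Its log2 fold change was 2.29 ± 0.30 with separate groups. Ms4a6d has closely related neighbours in its gene family, and reads that match several of them may be lost or misassigned, so its level is uncertain. Mpeg1 (perforin-2; mm9 chromosome 19, 12535269 to 12539774), a pore-forming protein that phagocytes use against engulfed bacteria, measured 9.13, 8.59, 10.1 and 5.39 CPM in double and 49.4, 27.9, 24.8 and 24.3 CPM in single colored libraries. It was the other phagocyte gene that passed (1.93 ± 0.24), and both kept their calls in all 8 omissions.

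The lysozyme gene Lyz2 (mm9 chromosome 10, 116714390 to 116719377) was the most abundant of the 34 and measured 66.7, 59.5, 48.4 and 48.6 CPM in double and 135.1, 94.6, 72.9 and 68.5 CPM in single colored libraries. The groups were narrowly separate, and its log2 fold change was 0.73 ± 0.20. Lyz2 passed with the block and with DESeq2, but not in the edgeR fit without the block. Lyz1 is a near-identical copy beside it, and reads shared by both make its count uncertain. Cd68, a lysosomal glycoprotein of macrophages, measured 12.6, 8.54, 13.2 and 8.82 CPM against 17.0, 13.5, 12.0 and 10.9 CPM. Its groups overlapped, and its log2 fold change was 0.31 ± 0.19. Cd14, the co-receptor for bacterial lipopolysaccharide, measured 2.05, 1.4997, 1.51 and 1.00 CPM against 3.67, 3.56, 3.38 and 1.87 CPM (1.04 ± 0.30). Its single colored replicate 4 lay inside the double colored range. Cd14 passed with the block and with DESeq2, but not in the edgeR fit without the block.

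Per kilobase of exon, the order of the 34 genes was led by phagocyte genes in both groups. Lyz2 stood at 42.5 CPM per kilobase in double and 70.7 in single colored libraries, and Cd68 followed at 8.59 and 10.6. Arhgdib came next at 3.63 in double and 7.40 in single colored libraries. Mpeg1 was close to it in single (7.29) but not in double colored libraries (1.91). Ptprc (1.70 and 5.02), Laptm5 (2.02 and 4.93), Cybb (1.99 and 4.67) and Lcp1 (2.04 and 4.64) formed the next step, and these neighbours lay within each other's spread over the single colored libraries. Btk (0.108 and 0.261), Ncf4 (0.281 and 0.376), Cd37 (0.125 and 0.429) and Was (0.155 and 0.448) were the lowest in single colored libraries. Because Lyz2 supplied the largest part of the summed level, the sum was also taken without it, and the ratio of single over double was then 2.42.

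In each group, 1 library stood at the same end for most of the 34 genes. Single colored replicate 1 was the highest single colored library in 31 of the 34 genes (91.2%), compared with 27.3% of all tested genes, and the lowest in 0. The exceptions were Cd37, Ncf1 and Ms4a6d, in which single colored replicate 4 was highest. Double colored replicate 4 was the lowest double colored library in 26 of the 34 (76.5%), compared with 24.1% of all tested genes. Single colored replicates 3 and 4 were each the lowest single colored library in 14 genes. Within the numbered pairs, the ratio of the summed level, single over double, was 2.86 for number 1, 1.85 for number 2, 1.67 for number 3 and 2.39 for number 4. In 32 of the 34 genes the single colored library was higher in all 4 pairs. The exceptions were Ncf4 and Cd68, which were higher in 3. The same count over all tested genes was not made, and the 34 were chosen with this contrast known. Nothing is read from the pair count. Single colored replicate 1 also had the most detected nuclear genes, 19888 against 17594 or more in the other single colored libraries, and the lowest summed cardiomyocyte marker level, 13990 CPM against 22007 to 25543 CPM. The part of either in the leukocyte levels was not tested.

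**Figure D2:**
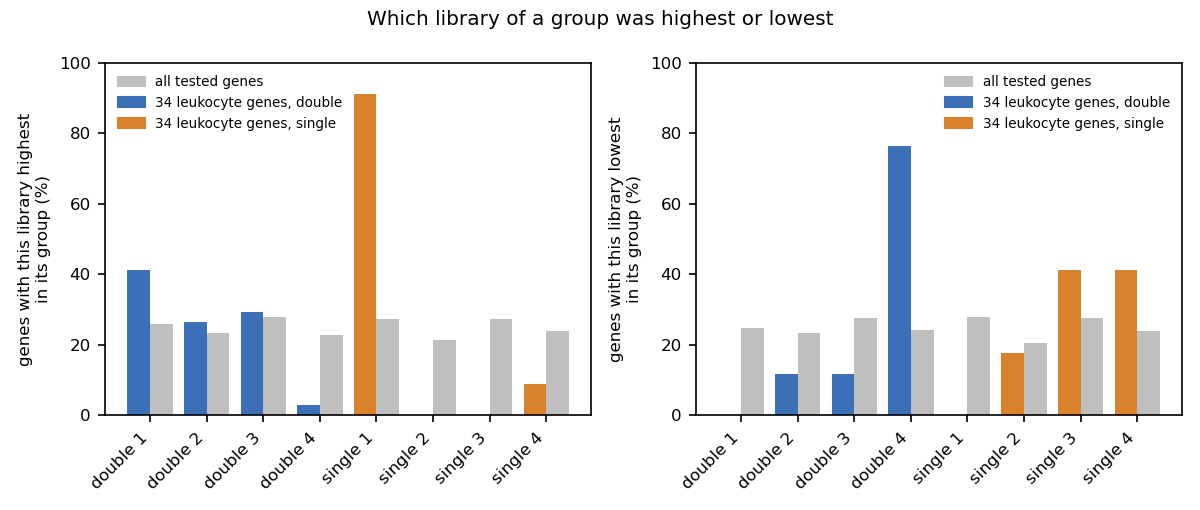
Percentage of genes in which each library is the highest (left) or the lowest (right) of its group of 4, for the 34 leukocyte genes (blue for double and orange for single colored libraries) and for all tested genes (grey). Single colored replicate 1 is highest in 91.2% and double colored replicate 4 lowest in 76.5% of the leukocyte genes, while all tested genes stay near an even split.

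Many of these leukocyte proteins have relatives in the same family, often working in most tissues, and 32 were compared in the same way. Some of the 32 were scarce here, such as Lyz1 (0.486 CPM in double and 0.284 CPM in single colored libraries) and Bmx (0.509 and 0.873 CPM). Of the 31 relatives that were tested, 0 passed in edgeR, DESeq2 or limma-voom, beside 2.48% of all tested genes in edgeR. With 31 genes, 0 calls do not set the relatives apart from that share. In edgeR, 4 had an unadjusted p under 0.05 (Wasl, Arhgap31, Dock5 and Cd82), beside 1885 of the 12466 tested genes. The median log2 fold change of the relatives was 0.05. Their summed level was 557 ± 8.59 CPM in double and 562 ± 14.9 CPM in single colored libraries (SD, n = 4). Much of it came from abundant relatives, such as Lamp2 (70.8 CPM in double and 75.9 CPM in single) and Lamp1 (66.2 and 70.5 CPM). In 4 of the 31 every single colored library lay above every double colored one, beside 5.37% of all tested genes. These were Coro1b, Dock5, Cd82 and Lamp1. Rac1, the widely used Rac GTPase, measured 50.1 ± 5.74 CPM in double and 53.3 ± 2.60 CPM in single colored libraries, a difference of 0.09 ± 0.14 on the log2 scale (adjusted p 0.834, edgeR). Per kilobase, Rac1 stood at 18.9 CPM in double and 20.1 CPM in single colored libraries, where Rac2 stood at 0.418 and 1.22. Laptm4a, the lysosomal relative of Laptm5, stood at -0.01 ± 0.13 on that scale (adjusted p 0.982, edgeR), and Ptpn11 (SHP2), the relative of Ptpn6 that acts in growth factor signaling, one of -0.03 ± 0.15 (adjusted p 0.957, edgeR).

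Nckap1, the WAVE subunit of other tissues, stood at -0.05 ± 0.13, the actin bundler Pls3 at 0.02 ± 0.20 and the GTPase inhibitor Arhgdia at 0.19 ± 0.15 on the same log2 scale. The tetraspanin Cd81 (-0.03 ± 0.14) and the lysosomal protein Lamp1 (0.09 ± 0.13) had values of similar size. The remaining relatives with the highest level for their leukocyte gene ran from Lyz1 (-0.76 ± 0.58), Wasl (-0.46 ± 0.17) and Ikzf5 (-0.42 ± 0.26) to Cd9 (0.56 ± 0.33) and Nox4 (0.69 ± 0.47). Wasl (N-WASP), the relative of Was, measured 37.6 ± 8.18 CPM in double and 27.3 ± 4.53 CPM in single colored libraries. It missed the threshold in the fit without the block (adjusted p 0.203, edgeR) and fell with the replicate block (log2 fold change -0.46, adjusted p 0.0307). Arhgap31 (-0.34 ± 0.15), Dock5 (0.54 ± 0.18) and Cd82 are named because of their values. Cd82 was the relative with the largest value, 1.49 ± 0.52 at 0.349 CPM in double and 0.980 CPM in single colored libraries (adjusted p 0.173, edgeR). With scaling by library totals alone, with which the median of all tested genes was 0.48, Cd82, Cd9, Dock5 and Coro1b passed as higher. The difference between a leukocyte gene and its relative was not tested.

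**Figure D3:**
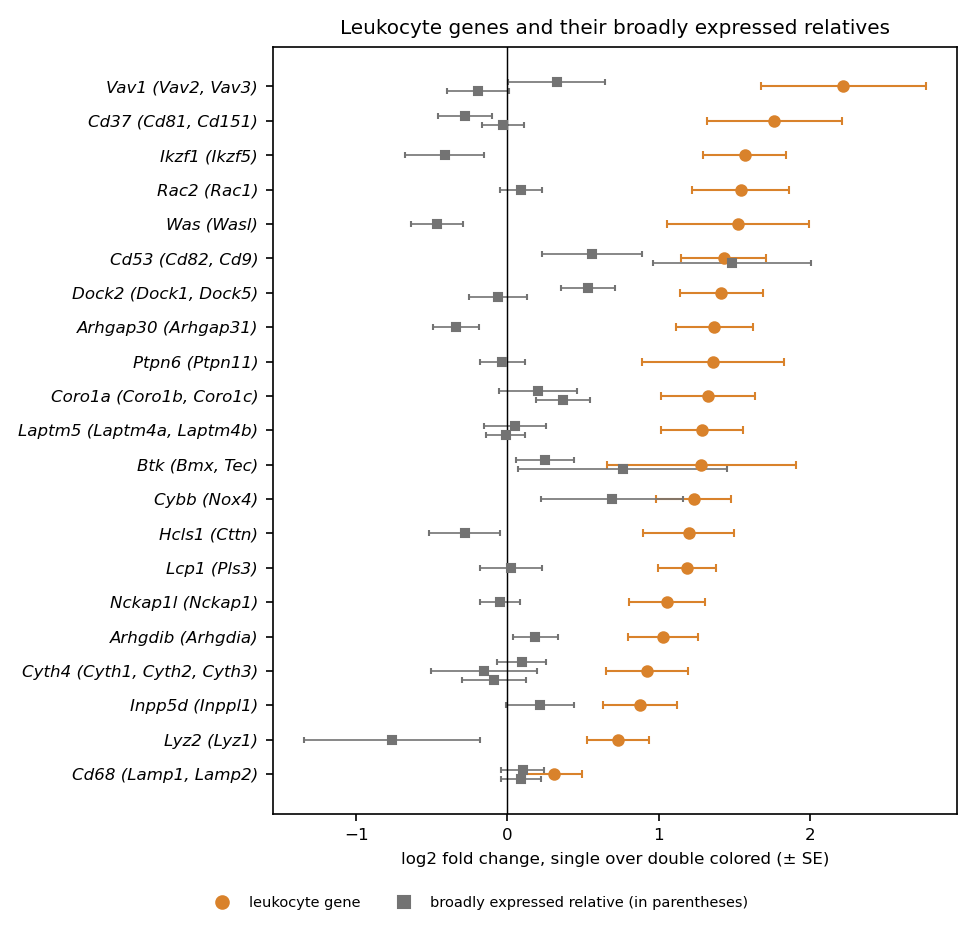
Log2 fold change, single over double colored, with its SE for leukocyte genes that have relatives on the list (orange circles). Those relatives are grey squares, with names in parentheses. Rac1, Nckap1, Laptm4a and Ptpn11 lie near 0 while Rac2, Nckap1l, Laptm5 and Ptpn6 lie above 1, and Cd82 is the relative farthest to the right.

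A list of 48 other leukocyte genes, outside the 34, was taken from general knowledge. Of these, 46 were in the table and 45 were tested. In this list 22 passed as higher and 0 as lower, beside 2.32% and 0.16% of all tested genes, and the median log2 fold change was 1.32. The summed level was 77.6 to 103 CPM in double and 163 to 281 CPM in single colored libraries, a ratio of 2.09. Single colored replicate 1 was the highest of its group in 32 of the 45 genes and double colored replicate 4 the lowest in 21. Leaving out 1 library gave 13 calls for double colored replicate 1 or 3, and 11 for double colored replicate 4. Leaving out single colored replicate 1 gave 11. The earlier results were known when the list was drawn up, so it is no independent evidence of the direction.

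By the smallest p, the leading genes of that list were Ikzf3, Fgr, Myo1g, Ptpn22, Pik3ap1 and Lair1. Ikzf3 (Aiolos), the lymphocyte relative of Ikzf1, rose from 0.544, 1.23, 0.389 and 0.293 CPM in double to 6.89, 4.15, 4.53 and 2.90 CPM in single colored libraries (log2 fold change 2.92 ± 0.40, adjusted p 0.00159, edgeR). Fgr, a Src family kinase of myeloid cells, rose from 0.227 to 0.335 CPM in double to between 1.22 and 2.5003 CPM in single colored libraries (2.72 ± 0.40, adjusted p 0.00243, edgeR). The groups of all 6 genes were separate. Myo1g, a membrane-linked myosin of blood cells, rose by 1.97 ± 0.32 on the log2 scale, and Ptpn22, a phosphatase that restrains T cell receptor signaling, by 1.91 ± 0.31. Pik3ap1, an adaptor for PI3 kinase in B cells and macrophages, rose by 1.36 ± 0.22, and the inhibitory collagen receptor Lair1 by 1.37 ± 0.25. Cd33 and Rhoh had values below 0 (-0.21 ± 0.38 and -0.19 ± 0.81) and did not pass.

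Markers of single blood cell types moved by unequal amounts beside the 34 shared genes. The 6 T cell markers summed to 1.46 to 2.60 CPM in double and 7.74 to 17.8 CPM in single colored libraries. The ratio was 5.54, and 4 of the 6 tested passed as higher, beside 2.32% of all tested genes. Cd3e, a chain of the T cell receptor complex, rose from 1.24 ± 0.747 to 7.17 ± 2.88 CPM (log2 fold change 2.53 ± 0.38, adjusted p 0.00272, edgeR). Cd3g rose by 3.60 ± 0.76 and the adhesion receptor Cd2 by 3.44 ± 0.68 on the same scale. Both rose from under 0.1 CPM in double colored libraries. Cd247 (1.00 ± 0.58) and Lck (1.66 ± 0.655) did not pass in edgeR, and their groups overlapped. Cd3e gave 7.17 CPM of a mean T cell sum of 11.3 CPM in single colored libraries. The 9 macrophage markers summed to 63.1 to 89.98 CPM in double and 75.1 to 120.4 CPM in single colored libraries, a ratio of 1.23. Of these 9, 1 passed as higher (Adgre1, the F4/80 antigen, 1.00 ± 0.23) and 1 as lower (Cd163, a scavenger receptor of resident macrophages, -1.47 ± 0.33), both named after their values were seen. By the mean level per kilobase over both groups, the leading macrophage markers were the complement genes C1qb (0.57 ± 0.23) and C1qc (0.71 ± 0.24) and the mannose receptor Mrc1 (-0.40 ± 0.17), and none of the 3 passed. Csf1r, the receptor that macrophages need for survival, was above Mrc1 per kilobase in single colored libraries (3.37 against 3.12 CPM) and did not pass either (0.55 ± 0.19).

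Natural killer cell markers summed to 0.878 to 5.23 CPM in double and 6.21 to 22.9 CPM in single colored libraries, mostly from Gzmb (2.20 ± 0.62, not past the threshold), while Nkg7 rose by 3.398 ± 0.52. Ncr1, which defines these cells, averaged 0.0758 and 0.271 CPM. B cell markers summed to 0.0418 to 0.544 CPM against 0.755 to 1.68 CPM, and Pax5 had 0 reads in double colored libraries. Neutrophil markers summed to 0.710 to 1.63 CPM against 1.43 to 7.42 CPM. In the highest of these, single colored replicate 4, Cxcr2 gave 3.06, Csf3r 2.54 and S100a9 1.55 CPM, and Ly6g and Camp had 0 reads in all 8 libraries. A count of 0 over the 4 libraries of a group allows up to 3 reads, or 0.0323 CPM in double and 0.0230 CPM in single colored libraries, from counting error alone. The cardiomyocyte markers summed to 22210 to 29416 CPM in double and 13990 to 25543 CPM in single colored libraries, a ratio of 0.776. The ratio was 0.864 without single colored replicate 1, and within the numbered pairs it ran from 0.63 to 0.90. Their log2 fold changes ran from -0.53 (Tnni3) to -0.32 (Ttn) with a median of -0.45, and 0 of the 9 passed in edgeR. The part of these marker levels in the values of the 34 genes was not tested.

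**Figure D4:**
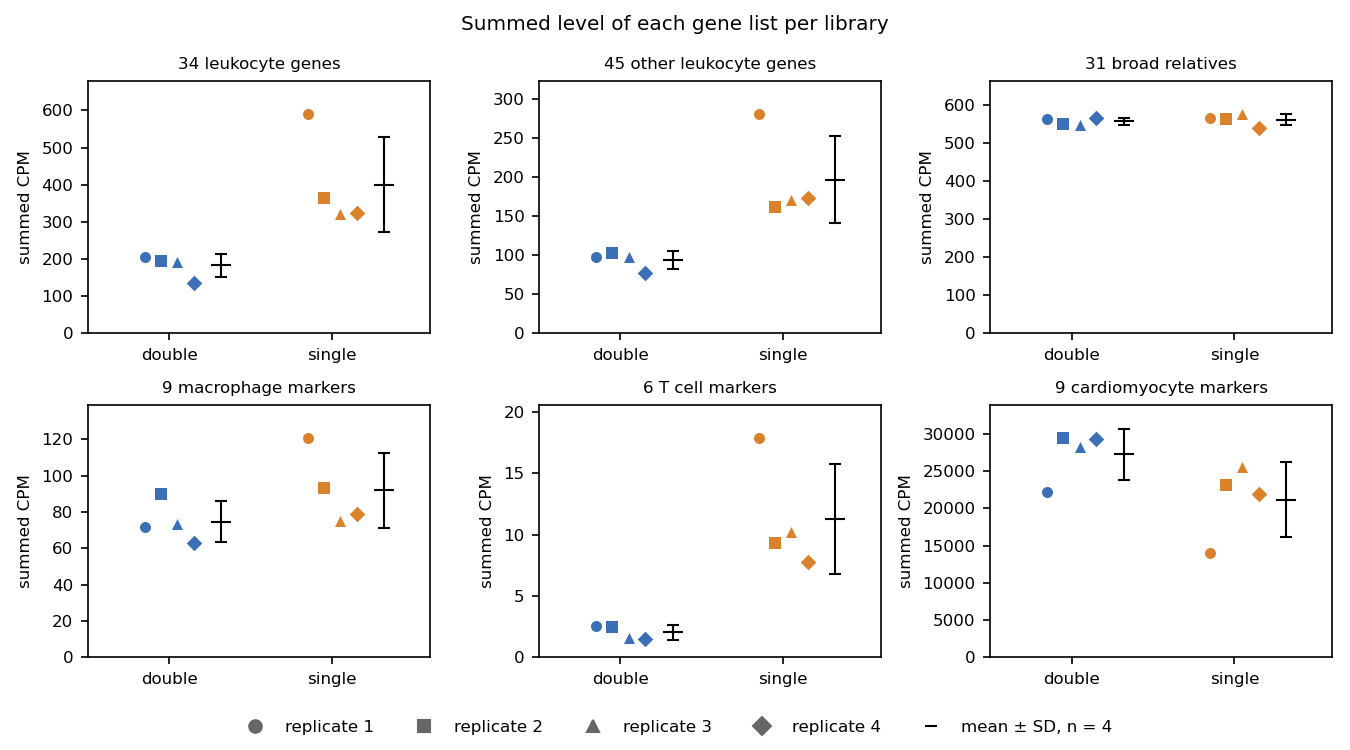
Summed CPM per library of the 34 leukocyte genes, the 45 other leukocyte genes, the 31 relatives and the macrophage, T cell and cardiomyocyte markers, with the symbol giving the replicate, and the mean with its SD (n = 4) beside the points, on linear axes from 0. Double colored libraries are blue and single colored libraries orange. The 34 genes sum to 136 to 206 CPM in double and 322 to 589 CPM in single colored libraries, while the relatives sum to 541 to 576 CPM over both groups.

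PU.1 (Spi1) and RUNX1 are transcription factors known to act at many leukocyte promoters, so the start regions of the 34 genes are shown here for their motifs. Spi1 itself rose from 0.903 ± 0.0428 to 2.26 ± 0.360 CPM (log2 fold change 1.32 ± 0.30, adjusted p 0.0261, edgeR). RefSeq windows on GRCm38.p6, from 250 bases before to 50 after a gene's start, were available for 27 of the 34 genes. The PU.1 motif GAGGAAGT, searched on both strands, was in a window of 5 of the 27 genes (18.5%) and in 3.69% of all 27025 genes with windows. The RUNX motif TGTGGTT, also on both strands, was in 5 of the 27 genes (18.5%) and in 6.09% of all genes. CCGGAAGT, a form shared by many ETS factors which has 6 bases in common with the PU.1 motif, was in 1 of the 27 (3.70%) and in 4.31% of all genes. Among the other leukocyte genes the shares were 20% for PU.1, 11.4% for RUNX and 0% for CCGGAAGT, over 35 genes. Among the relatives the shares were 4% for PU.1, 4% for RUNX and 8% for CCGGAAGT, over 25 genes. A match is a description of letters and not a binding site, and no test was made of these shares.

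The 60 bases around each motif that lies before the start are printed in the direction of the gene, with the motif in capitals, ACTTCCTC and AACCACA being the reverse strand forms. The PU.1 motif lay before the start in Cd37 (chr7:45238840-45238899, minus strand), Inpp5d (chr1:87620252-87620311, plus strand) and Vav1 (chr17:57279040-57279099, plus strand). In Vav1 its first base was 11 bases before the start, in Inpp5d 20 and in Cd37 25.
Cd37: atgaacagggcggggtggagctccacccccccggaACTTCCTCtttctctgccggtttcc
Inpp5d: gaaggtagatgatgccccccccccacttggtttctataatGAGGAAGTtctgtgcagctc
Vav1: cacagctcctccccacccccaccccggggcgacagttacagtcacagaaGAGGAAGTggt
The RUNX motif lay before the start in Arhgap30 (chr1:171388898-171388957, plus strand), Cybb (chrX:9469394-9469453, minus strand), Cytip (chr2:58160154-58160213, minus strand), Lyz2 (chr10:117282306-117282365, minus strand) and Was (chrX:8090495-8090554, minus strand).
Arhgap30: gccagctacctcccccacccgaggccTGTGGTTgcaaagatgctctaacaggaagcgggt
Cybb: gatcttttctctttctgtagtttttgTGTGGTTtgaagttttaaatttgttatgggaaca
Cytip: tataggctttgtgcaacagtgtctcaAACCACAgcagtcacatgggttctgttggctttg
Lyz2: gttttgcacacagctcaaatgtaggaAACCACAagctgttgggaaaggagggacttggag
Was: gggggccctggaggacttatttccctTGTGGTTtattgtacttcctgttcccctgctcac
Of these 8 genes, Cd37, Vav1, Arhgap30, Cybb and Cytip passed the threshold as higher in single colored libraries without the block. In edgeR, Inpp5d and Lyz2 passed with it and not without it, and Was passed in neither fit. With DESeq2, Inpp5d, Lyz2 and Was passed and Vav1 did not. Nothing about either factor is drawn from the matches.

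In the authors' deposited table the log2 fold change of all 34 genes, with the sign turned to single over double, was positive, from 0.29 to 2.28 with a median of 1.35. The adjusted p-values in the authors' deposited table ran from 0.185 to 0.831 for these genes, and the smallest of all 15711 genes with such a value there was 0.185. Exons of 8 of the 34 genes overlap a gene on the other strand, and reads from the overlap cannot be assigned to one of them without strand. The overlap covered 14.5% of the exon length of Cd52, 9.98% of Ncf1, 6.96% of Ptpn6 and 4.44% or less of Plek, Dock2, Lcp2 and Cd37. Lcp1 overlaps a pair of genes, with 3.27% and 2.30% of its exon length.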

How the data were processed

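RNA of 8 libraries of isolated mouse adult cardiomyocytes was used, grouped and numbered by the sample titles. RNA came from the miRNeasy Micro Kit and libraries from the Ovation RNA-seq System v2, an amplifying kit, per the labels' protocols. The submitters' processing notes name STAR 2.5.2b, featureCounts and the build mm9. The counting's strand setting: not given in the sources used here. Per the file headers, the deposited table holds raw reads per gene as whole numbers, which are counts and not estimated counts. None had to be rounded. Exon lengths and coordinates are those of the deposited table. The authors' deposited log2 values are of double over single, and come with deposited p-values and FDR values from a test that the sources used here do not give. A further 24 columns of normalized values were not used.

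GENCODE vM21 gave symbols for 32919 of the 37991 Ensembl identifiers. Counts were tested with edgeR 4.0.16 in R 4.3.3: filterByExpr with a minimum count of 10, TMM scaling, the robust quasi-likelihood F-test, 4 against 4 libraries, and Benjamini-Hochberg adjustment over 12466 genes at 0.05. The standard error is derived from the F statistic. CPM uses TMM-scaled library totals, mitochondrial reads included. CPM per kilobase divides by exon length. Precision is set by the depth: a gene at 1 CPM rests on few reads per library. Alternatives were DESeq2 1.42.0, limma-voom (limma 3.58.1) with quality weights, scaling by totals, other filters, removal of mitochondrial genes, a replicate block and each library left out. Leaving out both libraries numbered 1 was chosen after seeing the data. The test was tried on simulated data.

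The members and all gene lists were chosen with earlier results of these data known. All 34 members are named, with the highest-level relative of many of them and any relative past the threshold. So are the 6 other leukocyte genes with the smallest p. The 3 highest markers per kilobase are named for cardiomyocytes, T cells, natural killer cells, macrophages, fibroblasts, endothelial cells and mural cells. The other marker lists are named in part or not at all, and some names were picked by their values. Motifs were searched in RefSeq windows. Same-numbered libraries deviated together from their group means (correlations across genes of 0.257, 0.126, 0.136 and 0.139 for numbers 1 to 4). Between libraries of different numbers the correlations ran from -0.213 to 0.108, so most same-numbered values were only slightly higher. The descriptions of same-numbered libraries share identifiers. The numbers were taken as pairs in the replicate block and the pair ratios only. The edgeR fit behind the other counts and standard errors had no block.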

Additional observations from a re-analysis of the deposited data

Results flagged for a closer look

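In the 70 groups of 4 libraries examined, for the 34 genes and their sum in each group, 10 had 1 library farther from the others than the 95% limit for an outlier (0.829 of the range), which chance gives in about 1 in 20 groups. The 70 groups are not independent, since all rest on the same 8 libraries. Single colored replicate 1 stood above the other 3 single colored libraries for Ptprc (47.66 CPM against 22.51 to 23.57), Mpeg1 (49.37 against 24.33 to 27.89), Arhgdib (19.78 against 11.03 to 12.18), Ikzf1 (15.98 against 7.678 to 8.731), Rac2 (5.948 against 2.706 to 3.135) and Selplg (4.664 against 1.535 to 2.024). The sum over the 34 genes stood out in the same library, at 589.3 CPM against 322.4 to 363.7 CPM. Double colored replicate 4 stood below the others for Nckap1l (2.549 CPM against 5.234 to 5.531) and Was (0.1672 against 0.4187 to 0.4545). For Cd14, single colored replicate 4 stood below the others at 1.865 CPM against 3.383 to 3.668.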

How the results depend on the processing

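All 34 leukocyte genes kept a log2 fold change above 0 in each alternative in which they were tested, and so did their median. The direction of single relatives and markers was not followed through all alternatives. Of the 34 genes, 22 passed in the edgeR test, 26 with DESeq2 (21 of them shared), 19 with limma-voom, 32 with scaling by library totals, 12 of the 16 tested with a filter of 5 CPM in 4 libraries, 12 without both libraries numbered 1, and 12 to 19 when 1 library was left out. Over all tested genes 309 passed (289 higher, 20 lower), with 556 in DESeq2 (455 higher, 101 lower), 1390 with scaling by totals (1389 higher, 1 lower), 805 without the filter, 97 with the 5 CPM filter, 146 without both libraries numbered 1, and 134 to 304 with 1 library left out. Pairing the libraries by number (replicate block) gave 939 genes (619 higher, 320 lower), 29 of the 34 and, of the relatives, 1 (Wasl). The other leukocyte genes gave 22, with 36 under scaling by totals, 4 of 7 tested with the 5 CPM filter, 10 without both libraries numbered 1 and 11 to 21 with 1 left out. The relatives gave 0, with 4 under scaling by totals and 0 with any 1 library left out. The stricter filter tests fewer genes and the omissions use fewer libraries. The cause of the other shifts was not tested. Depth limits the scarcest genes, such as Btk with 31 reads over the double colored group.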

Other observations

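Markers of other cells that a heart preparation can hold gave these values beside the leukocyte genes. Endothelial markers summed to 123 to 161 CPM in double and 116 to 148 CPM in single colored libraries, led per kilobase by Cdh5, Pecam1 and Kdr, and 0 of 6 passed in edgeR. Mural cell markers, led by Rgs5, Acta2 and Pdgfrb, summed to 285 to 394 CPM against 216 to 314 CPM, and 0 of 5 passed in edgeR. Fibroblast markers summed to 221 to 459 CPM against 415 to 1104 CPM, and 1 of 6 passed, the collagen gene Col1a1, which rose by 1.76 ± 0.39 on the log2 scale (adjusted p 0.046, edgeR). Its partner Col3a1 had a value of 1.00 ± 0.42 and Dcn (decorin) one of -0.10 ± 0.28, and neither passed. Dendritic cell markers summed to 6.64 to 11.1 CPM against 6.30 to 11.03 CPM, nearly all from Zbtb46 (-0.17 ± 0.21). Platelet markers summed to 1.81 to 2.64 CPM against 1.99 to 2.38 CPM, mostly Pf4, with Gp9 at 0 reads in all 8 libraries. Mast cell markers summed to 0 to 0.419 CPM against 0 to 1.23 CPM. Erythrocyte markers, without the 2 beta globin genes that were not matched, summed to 0.821 to 9.25 CPM against 1.75 to 6.28 CPM.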
